A study of Drosophila melanogaster with 2 samples.

Results

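The 290 nuclear tRNA genes of Drosophila melanogaster were described by how often the orphan nuclear receptor Hr38 had a listed ChIP-seq region at them in white prepupae. They are all genes of the tRNA class on chromosome arms 2L, 2R, 3L, 3R, 4 and X in the Ensembl release 115 annotation of BDGP6 (the assembly also called dm6), out of 18164 annotated genes on these arms. The series holds 1 group of 2 biological replicates, Hr38-GFP ChIP, in which chromatin of whole animals was sonicated, precipitated with an antibody against GFP and sequenced. The animals were prepupae of a transgenic line, Hr38-GFP, that carries GFP at the C-terminus of Hr38. They were of both sexes, pooled, with a labelled age of 48 h, synchronised at the white prepupa stage. The antibody field of the labels reads Hr38, and the free text names the anti-GFP antibody. No sample without the tag and no input sample was analysed here, and whole animals mix all tissues, so a call made in few cells cannot be told apart from a weak call made in many. What is known of each library is its list of regions, not its reads: 768 regions passed the reproducibility threshold across replicates (the thresholded list), 19279 were listed for both replicates together (the pooled list), 30000 for replicate 1 and 29036 for replicate 2. The last 3 lists were deposited as peaks and background together, as input to the reproducibility test, so a summit in them is a listed position and not by itself a called binding site. A gene is said to have a summit when the highest point of a listed region lies within 500 bp of the gene. The middle of the region was that point to within 1 bp for 99.6% of pooled regions, whose median width was 380 bp.

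Transfer RNAs carry amino acids to the ribosome, and each reads a codon with its 3-base anticodon. Those that carry the same amino acid form an isotype, and genomes often hold several identical copies of 1 gene. Their genes are read by RNA polymerase III from a promoter that lies inside the gene. Its A box and B box are bound by TFIIIC, which places TFIIIB just upstream, and a run of T after the gene ends transcription. Hr38 belongs to the NR4A nuclear receptors, which bind AAAGGTCA as monomers, and is the fly's own member of that family. It also pairs with Usp, the partner of the ecdysone receptor, and the white prepupa is the stage at which ecdysone has just set off metamorphosis.

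The genes on which the results turn are shown first, from the RefSeq sequence of the same assembly, each 5′ to 3′ on the strand of the gene. The tyrosine genes are printed because they include the gene with the only thresholded summit, and capitals mark the intron that each carries after the base next to the anticodon. tRNA:Tyr-GTA-1-8 (chr3R:8669081-8669174), tRNA:Tyr-GTA-1-7 (chr3R:8668612-8668705) and tRNA:Tyr-GTA-1-6 (chr3R:8668116-8668208) stand in a row on the minus strand. tRNA:Tyr-GTA-1-3 (chr2L:2462593-2462686, plus strand), tRNA:Tyr-GTA-1-1 (chrX:21304441-21304535, minus strand) and tRNA:Tyr-GTA-2-1 (chrX:21304713-21304820, plus strand) are the other tyrosine genes with a pooled summit.
tRNA:Tyr-GTA-1-8: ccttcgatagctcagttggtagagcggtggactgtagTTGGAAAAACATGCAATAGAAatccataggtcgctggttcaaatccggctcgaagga
tRNA:Tyr-GTA-1-7: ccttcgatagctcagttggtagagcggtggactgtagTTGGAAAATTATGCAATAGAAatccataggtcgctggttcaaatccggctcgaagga
tRNA:Tyr-GTA-1-6: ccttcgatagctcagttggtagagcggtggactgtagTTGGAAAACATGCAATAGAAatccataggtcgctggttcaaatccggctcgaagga
tRNA:Tyr-GTA-1-3: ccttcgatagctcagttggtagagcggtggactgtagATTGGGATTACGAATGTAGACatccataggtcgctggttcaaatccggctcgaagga
tRNA:Tyr-GTA-1-1: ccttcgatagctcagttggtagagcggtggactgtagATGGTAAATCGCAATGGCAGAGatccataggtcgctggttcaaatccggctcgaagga
tRNA:Tyr-GTA-2-1: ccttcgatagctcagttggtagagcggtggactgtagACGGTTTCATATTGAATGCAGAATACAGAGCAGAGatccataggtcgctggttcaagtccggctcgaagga

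The mature part was the same in all of these tyrosine genes except tRNA:Tyr-GTA-2-1, which differed at 1 base. Introns and flanks set the genes apart. A further 4 genes follow, with the letters matching the B box pattern GTTCNANNC and, where found near the start, the A box pattern TNGNNNAGT in capitals. tRNA:Leu-TAA-1-1 (FBgn0051506, chr3R:20604749-20604832, minus strand) had the summit of both replicates inside the gene. tRNA:Asp-GTC-1-10 (FBgn0011844, chr3L:13249547-13249618, plus strand) is 1 of 12 identical copies and the only one of them with a summit in both replicates. tRNA:Lys-TTT-1-1 (FBgn0011902, chr2L:8290727-8290799, plus strand) and tRNA:Pro-AGG-1-7 (FBgn0052126, chr3L:13212365-13212436, plus strand) were among the highest-scoring genes.
tRNA:Leu-TAA-1-1: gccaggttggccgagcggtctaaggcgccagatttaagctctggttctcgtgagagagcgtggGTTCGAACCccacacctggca
tRNA:Asp-GTC-1-10: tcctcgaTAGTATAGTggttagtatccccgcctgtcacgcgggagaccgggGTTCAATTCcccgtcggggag
tRNA:Lys-TTT-1-1: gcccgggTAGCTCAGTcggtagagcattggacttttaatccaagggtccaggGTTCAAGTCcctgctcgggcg
tRNA:Pro-AGG-1-7: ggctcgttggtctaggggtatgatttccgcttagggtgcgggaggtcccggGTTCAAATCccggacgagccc

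Hr38 summits were few at tRNA genes, and in the list of reproducible regions 1 gene had one. In the thresholded list 1 of 290 tRNA genes (0.345%, 95% Wilson interval 0.0609 to 1.93%) had a summit, against 0.644% of the same windows after shifting all genes along their arm, and 3.32% of the 5′ ends of 13945 protein-coding genes. In the pooled list 29 genes (10%, 7.05 to 14.0%) had one, against 14.9% of shifted windows and 23.7% of protein-coding 5′ ends. These shifts were 99 equal steps around each arm, over which the thresholded share ran from 0.0 to 1.72% and the pooled share from 9.31 to 21.0%. The share of tRNA genes therefore lay below the mean of the shifts in both lists and inside their range.

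The replicates differed in this. In replicate 1, 30 tRNA genes (10.3%, 7.34 to 14.4%) had a summit, against 22.7% of shifted windows, with a range of 14.1 to 35.5%, and 26.2% of protein-coding 5′ ends. In replicate 2, 74 tRNA genes (25.5%, 20.8 to 30.8%) had one, against 21.0% of shifted windows, with a range of 12.4 to 30.7%, and 35.8% of protein-coding 5′ ends. tRNA genes were thus under every one of the shifts in replicate 1 and above their mean in replicate 2. With 1 group of 2 replicates no test over samples exists. The intervals treat genes as independent and cover counting error only, although neighbouring genes share summits.

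**Figure D1:**
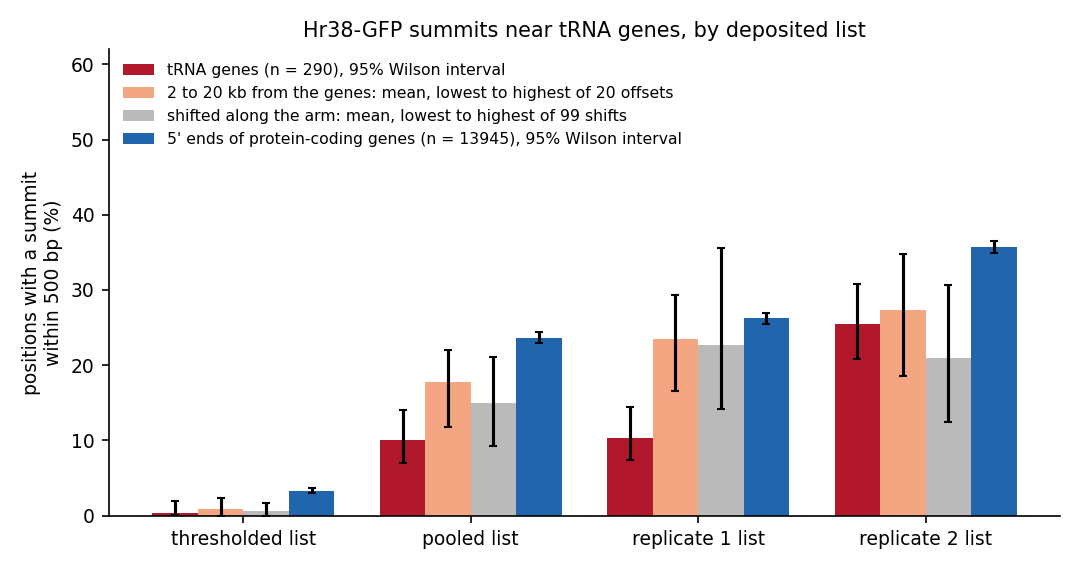
Share of positions with a summit within 500 bp, in percent, for each deposited list. Bars stand for tRNA genes (95% Wilson interval), the same windows moved 2 to 20 kb from the genes (mean, with the lowest and highest of 20 offsets), windows shifted along the arm (mean, with the lowest and highest of 99 shifts) and 5′ ends of protein-coding genes (95% Wilson interval). tRNA genes are at 10% in the pooled list and 10.3% in replicate 1, under the moved windows, and at 25.5% in replicate 2, within their range.

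Windows close to the tRNA genes were compared as well, a choice made after the first values were seen. Moved 2 to 20 kb to either side in 20 offsets, they had a pooled summit in 17.8% of cases on average, with a range of 11.7 to 22.1%, so that the 10% of the genes themselves lay under all 20. For replicate 1 the 10.3% of the genes stood against a local mean of 23.5% with a range of 16.6 to 29.3%, again under all 20. For replicate 2 the 25.5% of the genes stood against a local mean of 27.4% and a range of 18.6 to 34.8%, and 3 of the 20 offsets were lower. The surroundings of tRNA genes thus held more summits than the average shifted window in these lists, and the genes held fewer than all of these surroundings in the pooled list and replicate 1 but not in replicate 2.

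Summits were then placed by their distance from the genes. In the 250 bp upstream of the genes there were 0.0414 pooled summits per kb and in the 250 bp downstream 0.0828, against 0.155 to 0.193 between 500 bp and 20 kb away and 0.144 over the arms. Replicate 1 had 0.0828 per kb in the 250 bp upstream and 0.0414 in the 250 bp downstream. It had 0.159 to 0.253 between 500 bp and 20 kb away and 0.224 over the arms. In replicate 2 the 2 sides were unlike: 0.152 per kb in the 250 bp upstream, where TFIIIB sits, and 0.372 in the 250 bp downstream. Between 500 bp and 20 kb away replicate 2 had 0.250 to 0.345, against 0.217 over the arms. Its downstream value was thus little above its surroundings, and its upstream value was below them. The values for the 250 bp downstream rest on 6 pooled, 3 replicate 1 and 27 replicate 2 summits, counted for each gene they lie near. The median position of the highest pooled summit was 164 bp past the 5′ end, over the 29 genes. Inside the gene bodies lay 3 pooled, 3 replicate 1 and 4 replicate 2 summits. The bodies are short, so these make 0.136, 0.136 and 0.182 per kb, against 0.144, 0.224 and 0.217 over the arms. In the pooled list the bodies were thus near the mean of the arms, on few summits.

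**Figure D2:**
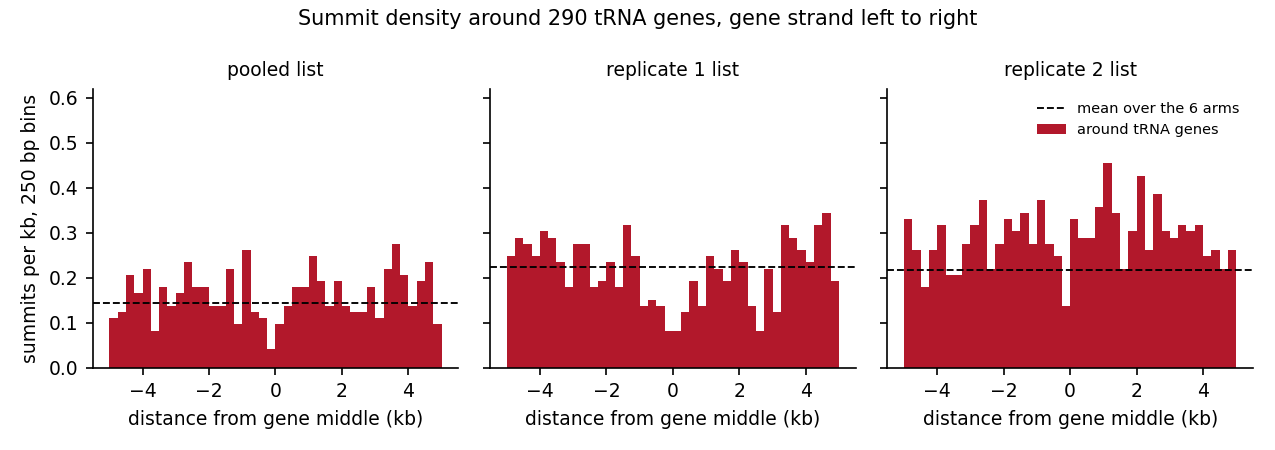
Summits per kb in bins of 250 bp by distance from the middle of the gene, in kb, with the strand of each gene running left to right, for the pooled list and each replicate. The dashed line is the mean over the 6 arms. The pooled and replicate 1 bins next to the gene are under the line on both sides. In replicate 2 the bin just downstream is above it (0.331), as are bins farther out, such as 0.455 at 1125 bp.

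The gene with the thresholded summit was tRNA:Tyr-GTA-1-8 (FBgn0012024), the gene of a tRNA that carries tyrosine. Its region spans chr3R:8669243-8669622 with the summit at position 8669433, 259 bp upstream of the gene, and does not reach the gene body. The score was 120.6 in the thresholded and pooled lists, rank 288 of the pooled list. Replicate 1 scored 44.9 there, rank 677 of 30000, and replicate 2 scored 78.0, rank 127 of 29036, so it stood high in both lists. These scores are the authors' own and rank regions within a list, on a scale that no label or header states. The gene lies inside the protein-coding genes p and CG8036, on their strand and over no exon of either, and the summit is 185 bp from an annotated start site of CG8036. Around the summit, chr3R:8669373-8669493 reads as follows on the strand of the gene, the summit base in capitals.
summit window upstream of tRNA:Tyr-GTA-1-8: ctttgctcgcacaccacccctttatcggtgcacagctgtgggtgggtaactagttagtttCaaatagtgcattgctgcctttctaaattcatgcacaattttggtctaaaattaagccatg

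These 121 bases hold neither AAAGGTCA nor its inner part AGGTCA on either strand, and their GC content is 43.0%. The next genes of the row, tRNA:Tyr-GTA-1-7 and tRNA:Tyr-GTA-1-6, lie 728 and 1225 bp from the nearest thresholded summit and had no summit within 500 bp in any list. Of the 290 tRNA genes, 6 lay within 2000 bp of a thresholded summit and 33 within 10000 bp, and no shifted share was computed at these distances. The median distance to the nearest was 50021 bp, against 80030 bp for shifted windows.

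Tyrosine was also the isotype with the most genes in both replicates. Of its 10 genes 4 had a pooled summit, and the same 4 had one in replicate 1 and in replicate 2. They are tRNA:Tyr-GTA-1-8, tRNA:Tyr-GTA-1-3 and the divergent pair on X, tRNA:Tyr-GTA-1-1 and tRNA:Tyr-GTA-2-1, which share 1 summit between them. That summit had scores of 19.6 in replicate 1, 15.5 in replicate 2 and 37.0 in the pooled list. tRNA:Tyr-GTA-1-3 scored 18.9, 15.2 and 30.9 in the same order. Apart from tRNA:Tyr-GTA-1-8 these ranks are middling, from 16993 to 19221 in the replicates. The other 6 tyrosine genes had no summit in any list. The tyrosine shares of 40% in the pooled list and in each replicate stand against 17.0% (pooled), 25.5% (replicate 1) and 25.7% (replicate 2) of their shifted windows.

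The next scores fell off steeply. tRNA:Gly-GCC-1-10 (FBgn0011869, chr2R:20229481-20229551, plus strand), a glycine gene, had a pooled score of 52.4, with 36.0 in replicate 1 and 15.6 in replicate 2, and the pooled summit lay 525 bp past its 5′ end. tRNA:His-GTG-1-3 (FBgn0050251, chr2R:12334995-12335066, minus strand), a histidine gene, had a pooled score of 50.1, with 20.3 in replicate 1 and 23.4 in replicate 2. Its summit lies 123 bp upstream of the gene and 127 bp from a start site of CG8490, and the region overlaps the gene. tRNA:Pro-AGG-1-7, a proline gene, scored 48.9, 29.7 and 17.8 in the pooled list and replicates 1 and 2, with its pooled summit 501 bp past the 5′ end and the nearest protein-coding start site 15826 bp from that summit.

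The summit at tRNA:Leu-TAA-1-1, a leucine gene in an intron of bon on the opposite strand, lay inside the gene in the pooled list and both replicates, 44 to 48 bp past the 5′ end. The pooled score was 45.8, with 24.6 in replicate 1 and 12.8 in replicate 2, so it ranked 7526 of 30000 in replicate 1 and 27285 of 29036 in replicate 2. tRNA:Lys-TTT-1-1, a lysine gene in an intron of Btk, had the opposite balance, with 19.1 in replicate 1, 29.1 in replicate 2 and a pooled score of 45.2. The remaining genes of the 10 highest pooled scores after the thresholded gene were tRNA:Ser-GCT-2-3 (45.0), tRNA:Val-CAC-2-5 (42.7), tRNA:Ser-GCT-2-1 (42.5), tRNA:Val-CAC-2-2 (39.9) and, tied, tRNA:Ala-AGC-2-2 and tRNA:Pro-TGG-1-2, which share a summit of 39.7. tRNA:Ser-GCT-2-1, tRNA:Ala-AGC-2-2 and tRNA:Pro-TGG-1-2 had no replicate 1 summit. Serine, valine, alanine and proline genes thus entered by 1 or a few members each, out of 20, 15, 17 and 17.

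Scores at tRNA genes were those of ordinary listed regions. The median highest score of the 29 genes with a pooled summit was 37.0, with a range of 28.8 to 120.6, against 34.8 for the whole pooled list and 39.7 at protein-coding 5′ ends. In replicate 1 the 30 genes had a median of 20.7, against 20.4 for the list and 22.5 at protein-coding 5′ ends. In replicate 2 the 74 genes had a median of 15.2, against 16.4 for the list and 18.7 at protein-coding 5′ ends, and 28 of the 74 were over the list's median. Regions in the top 10% of their list stood at 1 gene for the pooled list, at 2 genes for replicate 1 and at 3 for replicate 2. The replicate 2 excess over the shifted windows lay in the lower part of its list.

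Cutting the replicate lists to the same number of regions, also chosen after the first values were seen, removed the replicate 2 excess. Among the 5000 highest regions, 4 tRNA genes (1.38%) had a summit in replicate 1, against 4.27% of shifted windows, and 8 (2.76%) in replicate 2, against 3.81%. Among the 19279 highest, as many as in the pooled list, 24 (8.28%) had one in replicate 1, against 15.2%, and 41 (14.1%) in replicate 2, against 14.3%. At equal list length replicate 2 still held more tRNA genes than replicate 1, at both lengths.

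The replicates named partly different tRNA genes. A summit in both was found at 16 genes (5.52%), against 7.71% of shifted windows with a range of 4.14 to 14.1%. These 16 are 53.3% of the replicate 1 genes and 21.6% of the replicate 2 genes. A further 14 genes had a summit in replicate 1 alone and 58 in replicate 2 alone, while 202 had one in neither. At 15 of the 16 shared genes the highest summits of the replicates lay within 200 bp of each other. The exception was tRNA:Met-CAT-1-3, an elongator methionine gene with a replicate 1 summit 177 bp upstream of the 5′ end and a replicate 2 summit 52 bp past it, and it was also the only one of the 16 with no pooled summit.

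The 16 shared genes scored close to those of 1 replicate alone. Their median was 20.3 in replicate 1 against 21.3 for the 14 genes of replicate 1 alone, and 15.5 in replicate 2 against 15.1 for the 58 of replicate 2 alone. Of the 29 genes with a pooled summit, 15 had one in both replicates, 6 in replicate 1 alone and 7 in replicate 2 alone. The last, tRNA:Lys-CTT-1-10, had a pooled summit of 28.8 and none in either replicate. Across all 4 lists 89 genes had a summit somewhere and 201 had none.

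**Figure D3:**
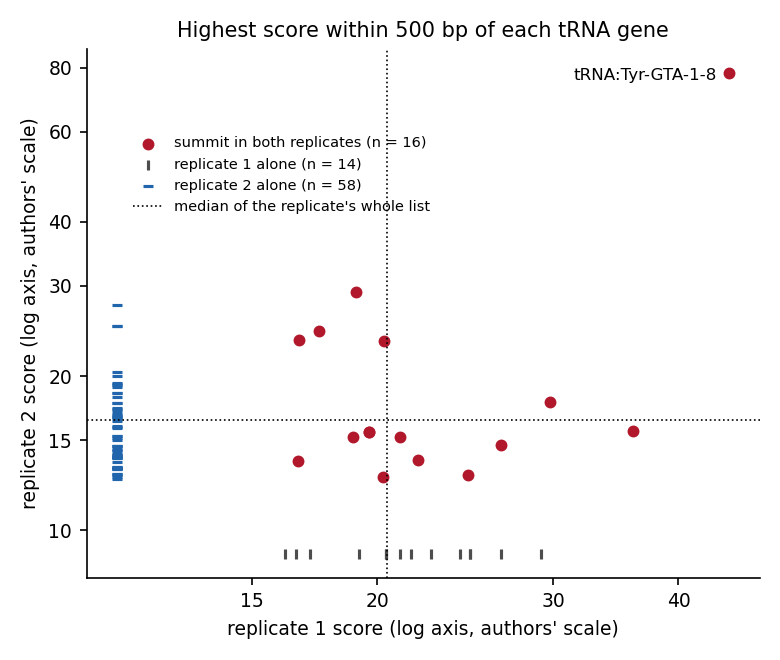
Highest score within 500 bp of each tRNA gene in replicate 1 (x) and replicate 2 (y), on log axes and in the authors' scale. Dots are the 16 genes with a summit in both replicates, ticks along the bottom and the left edge are genes with a summit in 1 replicate alone, placed at no value of the other, and dotted lines are the medians of the whole lists. tRNA:Tyr-GTA-1-8, at 44.9 and 78.0, stands apart from all others.

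By isotype, counts were small and differed between the lists. The 290 genes fall into 22 isotypes, from 26 arginine genes to 1 selenocysteine gene, with 44 anticodons. In the pooled list histidine had 2 of 5 genes (40%, against 15.8% of their shifted windows), methionine 2 of 6 (33.3%, against 12.5%), serine 4 of 20 (20%, against 12.5%) and threonine 3 of 17 (17.6%, against 14.9%). A group of 7 isotypes had none: asparagine, cysteine, glutamine, glutamate, isoleucine, selenocysteine and tryptophan. Glutamate, with 19 genes in 8 loci, was the largest of these, and 0 of 19 leaves room for up to 15.8% with genes taken as independent. In replicate 2 leucine had 10 of 22 genes (45.5%, against 22.9% of shifted windows), glutamine 6 of 12 (50%, against 20.4%) and aspartate 6 of 14 (42.9%, against 23.4%). In replicate 1 leucine had 1 (4.55%, against 24.2%), glutamine 0 (against 21.0%) and aspartate 3 (21.4%, against 21.9%).

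Genes that share summits carry part of these counts. The 74 genes with a replicate 2 summit rest on 61 summits, of which 11 lie near more than 1 gene, with at most 3 genes to a summit. Leucine shows this: 6 of the 8 identical tRNA:Leu-CAG genes had a replicate 2 summit, 3 of them (tRNA:Leu-CAG-1-2, tRNA:Leu-CAG-1-3 and tRNA:Leu-CAG-1-4) the same one at 14.6, and none had a pooled or replicate 1 summit. The 4 summits behind these 6 genes scored 12.7 to 17.3. Cysteine was the one isotype with no summit in any list. Its 7 genes leave room for up to 42.9% with genes taken as independent, and they lie in 4 loci.

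The selenocysteine gene tRNA:SeC-TCA-1-1, which reads a stop codon, had a replicate 2 summit of 15.1 and none in the other lists. Of the 6 initiator methionine genes, which start translation, only tRNA:iMet-CAT-1-3 had a pooled summit. That summit lay inside the gene, and the scores were 36.6 in the pooled list and 20.4 in replicate 1, with no replicate 2 summit. In replicate 2, tRNA:iMet-CAT-1-1 and tRNA:iMet-CAT-1-2 shared a summit of 13.2 with the glutamate gene tRNA:Glu-TTC-1-4. The highest gene of the remaining isotypes with a pooled summit was tRNA:Thr-AGT-1-4 (37.0), tRNA:Asp-GTC-1-10 (36.5), tRNA:Met-CAT-2-1 (35.3), tRNA:Phe-GAA-1-3 (31.7) and tRNA:Arg-TCG-1-1 (29.96).

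**Figure D4:**
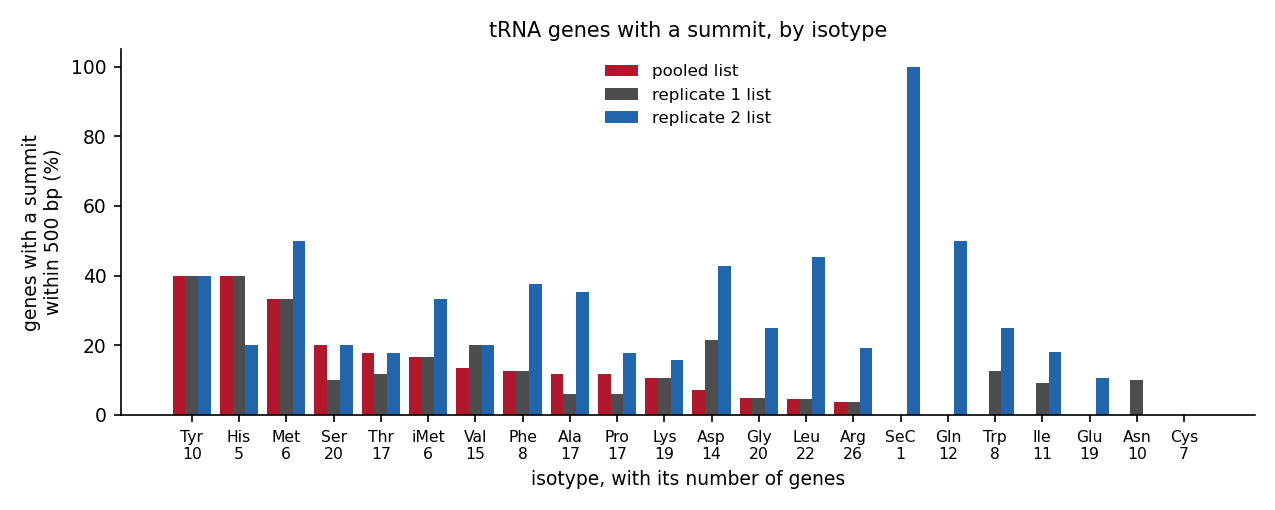
Share of the genes of each isotype with a summit within 500 bp, in percent, in the pooled list and each replicate, ordered by the pooled share, with the number of genes under each name. Tyrosine and histidine lead the pooled list at 40%, of 10 and 5 genes, and the order in replicate 2 is another one.

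Identical copies of a gene could differ in outcome. The 290 genes hold 95 different sequences, of which 52 occur once on the arms and 43 in several copies, up to 13. None of the 43 families had a pooled summit at every copy, with 27 at none and 16 at some, and in replicate 2 there were 15 families at none and 28 at some. Over all 290 genes the shares were 10% (pooled) and 25.5% (replicate 2), against 14.9 and 21.0% of shifted windows. At such shares a summit at every copy of a family would be rare anyway, and no expected number was computed. The windows also reach 500 bp beyond each copy. The 12 copies of tRNA:Asp-GTC-1, printed above as tRNA:Asp-GTC-1-10, are an example. A replicate 2 summit stood at 6 of them, a replicate 1 summit at 3 and a pooled summit at 1. The copy in all 3 lists, tRNA:Asp-GTC-1-10, had its pooled summit 410 bp upstream, 435 bp from a start site of CG32119. Its pooled score was 36.5, with 21.1 in replicate 1 and 15.2 in replicate 2.

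Genes whose sequence occurs once had a pooled summit in 9 of 52 cases (17.3%), against 20 of 238 (8.403%) for genes in several copies. Their shifted windows had 15.6 and 14.8%, so in the pooled list the single genes were near their background and the copied genes below it. In replicate 1 the counts were 8 of 52 (15.4%, against 23.0% of shifted windows) and 22 of 238 (9.24%, against 22.6%). In replicate 2 they were 17 of 52 (32.7%, against 21.7%) and 57 of 238 (23.9%, against 20.8%). The 4 tyrosine genes are among the 9 single genes with a pooled summit, since introns make each of their sequences unlike the others. Without genes that carry an intron, 5 of 36 single genes (13.9%) had a pooled summit. How the authors placed reads that match several copies is not stated, and its part in these counts was not tested.

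Genes were also split by their tRNA neighbours. Genes at most 1000 bp apart were joined into 174 loci, of which 105 hold 1 gene. A pooled summit was found at 17 of the 105 lone genes (16.2%), 4 of 86 genes in pairs (4.65%), 8 of 68 in loci of 3 or 4 (11.8%) and 0 of 31 in loci of 5 to 7. The 0 counts leave room for up to 9.68% with genes taken as independent. Those 31 genes lie in only 5 loci, so the true room is wider and the 0 cannot be set below the background. The shifted windows of these 4 classes had 15.3, 15.3, 14.9 and 12.6%, so in the pooled list lone genes were near their background. In replicate 1 the counts were 18, 4, 6 and 2 (17.1, 4.65, 8.82 and 6.45%, against 23.1, 23.1, 22.2 and 21.4% of shifted windows). In replicate 2 they were 30, 26, 18 and 0 (28.6, 30.2, 26.5 and 0%, against 20.9, 21.4, 21.3 and 19.4%). Lone genes were thus below their background in replicate 1 and above it in replicate 2. Among genes in several copies, 13 of 78 lone ones (16.7%) had a pooled summit, against 7 of 160 with a tRNA neighbour (4.38%). Among single-copy genes, 4 of 27 lone ones (14.8%) had one, against 5 of 25 with a neighbour (20%). Of these classes, genes both copied and crowded had the lowest pooled share. No shifted share was computed for these classes. The 5 single-copy genes with a neighbour include tRNA:Tyr-GTA-1-8 and the tyrosine pair on X that shares 1 summit, so that share rests on few summits. Replicate 2 gave 20 of 78 (25.6%) for copied lone genes and 37 of 160 (23.1%) for copied crowded ones. That split was made after the first values were seen.

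Counted by locus, 26 of 174 (14.94%, 10.4 to 21.0%) had a pooled summit, against 18.2% of shifted loci with a range of 11.49 to 26.4%. Replicate 1 had 28 loci (16.1%), against 27.1% with a range of 19.0 to 37.9%, and replicate 2 had 58 (33.3%), against 24.9% with a range of 16.1 to 35.1%. The thresholded list had 1 locus (0.575%), against 0.853%. Replicate 1 stayed under all shifts when each locus counted once. Loci of several genes had a pooled summit in 9 of 69 cases (13.0%), against 17 of 105 for lone genes (16.2%), and a replicate 2 summit in 28 of 69 (40.6%), against 30 of 105 (28.6%). By locus the difference from lone genes was thus small in the pooled list and went the other way in replicate 2. Loci of several genes cover wider windows than lone genes, however. No shifted share was computed for loci of several genes, so their place against their own background is not known.

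The 5 largest loci had 5 to 7 genes each and spanned 1219 to 2513 bp. One of 5 genes, for arginine, asparagine and lysine, lies within EcR, the ecdysone receptor gene, and its nearest summits were 3954 bp away in the pooled list, 3868 bp in replicate 1 and 1873 bp in replicate 2. A locus of 7 isoleucine and leucine genes within ATP8A had 1 replicate 1 summit, scored 24.2, and a locus of 6 arginine and asparagine genes on 3R had 1, scored 17.1. A locus of 6 cysteine and lysine genes within Cht7 on 3L and one of 7 arginine and serine genes on X had none in any list. The nearest thresholded summit to any of them was 14297 bp away.

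The base composition around the genes moved with the shares in replicate 1 and the pooled list. The GC content of the 500 bp on each side had a median of 36.75% for tRNA genes, against 42.7% for the windows at protein-coding 5′ ends and 41.8% for tiles of 1000 bp over the arms. Around all listed summits it was 43.8% (pooled), 44.2% (replicate 1) and 42.3% (replicate 2). Over 3 groups of tRNA genes from the lowest to the highest GC, the pooled share was 5.15, 8.33 and 16.5%, the replicate 1 share 3.09, 8.33 and 19.6%, and the replicate 2 share 23.7, 26.0 and 26.8%. No shifted share was computed for these groups, so whether other windows of like GC show the same rise is not known. The part of base composition in the low shares was not tested, and the groups were made after the first values were seen.

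**Figure D5:**
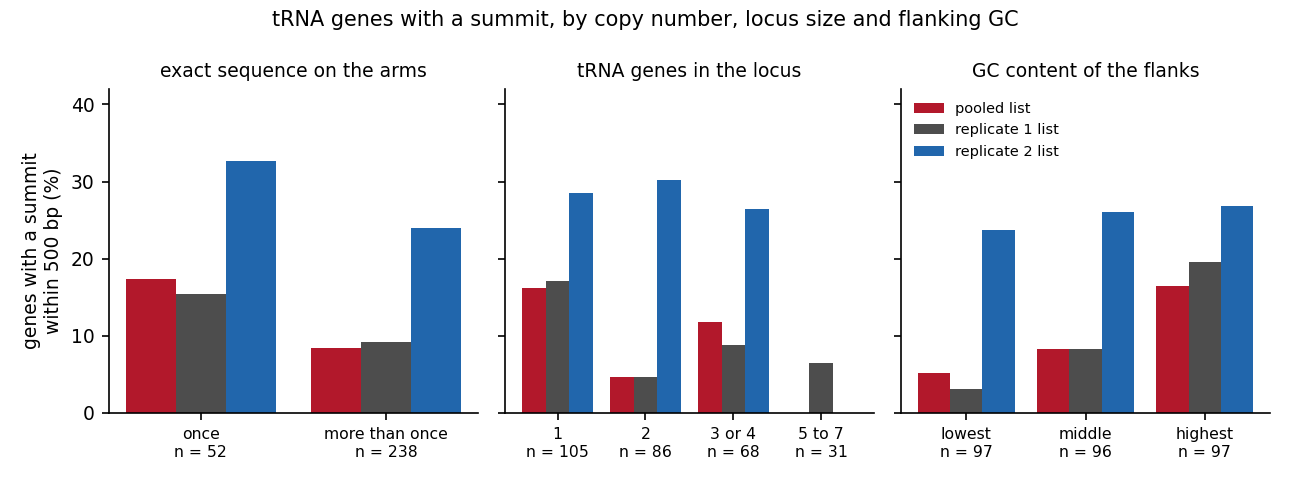
Share of tRNA genes with a summit within 500 bp, in percent, in the pooled list and each replicate, by how often the exact sequence occurs on the arms, by the number of tRNA genes in the locus, and by flanking GC content in 3 groups. The pooled share is 16.2% for lone genes and 0 of 31 in loci of 5 to 7, and it goes from 5.15% at the lowest GC to 16.5% at the highest, while replicate 2 stays between 23.7 and 26.8% over the same groups. No shifted share was computed for the GC groups.

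The replicate 2 share was higher within 1000 bp of a protein-coding start site than farther away. Of the 33 tRNA genes within 500 bp of one, 4 had a pooled summit (12.1%), 5 a replicate 1 summit (15.2%) and 13 a replicate 2 summit (39.4%), against 15.7, 24.1 and 22.1% of their shifted windows. The replicate 2 summits stood at 9 of the 15 such genes outside protein-coding genes (60%, against 20.9%) and 4 of the 18 inside one (22.2%, against 23.1%). Of the 47 genes over 500 and up to 1000 bp from a start site, 15 had a replicate 2 summit (31.9%, against 21.6%). They were 8 of 28 outside protein-coding genes (28.6%, against 21.1%) and 7 of 19 inside one (36.8%, against 22.3%). The lean to genes outside was thus absent between 500 and 1000 bp. Over 1000 bp from a start site it was present again in replicate 2. There 29 of 113 genes outside had a summit (25.7%, against 20.3%) and 17 of 97 inside (17.5%, against 21.1%). Of the 210 genes over 1000 bp from any, 21 (10%), 23 (10.95%) and 46 (21.9%) had one in the same order of lists, against 14.5, 22.2 and 20.7%. The summits themselves lay within 500 bp of a start site at 7 of 29 genes in the pooled list (24.1%), 6 of 30 in replicate 1 (20%) and 22 of 74 in replicate 2 (29.7%), against 17.8, 13.1 and 19.7% of all regions of these lists.

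By place, 156 tRNA genes lie outside protein-coding genes, 127 inside one without touching an exon and 7 over a protein-coding exon. Pooled summits stood at 16 of 156 (10.3%), 13 of 127 (10.2%) and 0 of 7. Replicate 1 gave 13 (8.33%), 17 (13.4%) and 0, and replicate 2 gave 46 (29.5%), 27 (21.3%) and 1. The pooled share was alike inside and outside. Outside, the shifted windows had 14.7% (pooled), 22.7% (replicate 1) and 20.5% (replicate 2). In replicate 1 the higher share inside came from genes on the strand of the host, at 11 of 59 (18.6%, against 22.3%). Those on the opposite strand had 6 of 75 (8.0%, against 23.0%), near the share outside. Replicate 2 had 14 of 59 (23.7%, against 20.8%) and 14 of 75 (18.7%, against 22.1%).

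The arms gave pooled shares of 9.76% of 41 genes on 2L, 6.12% of 98 on 2R, 10.4% of 48 on 3L, 12.7% of 79 on 3R and 16.7% of 24 on X, and no tRNA gene is annotated on 4. X was the only arm above its own shifted mean of 8.00%, by 4 genes, 2 pairs of which share a summit. Replicate 1 was under its shifted mean on each autosomal arm, with 5.10% on 2R at the lowest, and had 16.7% on X against 13.9%.

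The receptor's own motif was not more frequent at tRNA genes. AAAGGTCA was found on either strand within 500 bp of 6 of 290 tRNA genes (2.07%), against 3.21% of protein-coding 5′ ends over windows of like length. The shorter AGGTCA, which it contains, was within 500 bp of 66 tRNA genes (22.8%), against 25.6%. Among the 29 genes with a pooled summit, 7 (24.1%) had AGGTCA, against 59 of the 261 without (22.6%), and 1 had AAAGGTCA, against 5. The promoter boxes inside the genes were likewise shared by genes with and without a summit. The B box pattern GTTCNANNC was in 271 genes (93.4%), 27 of them among the 29, and the A box pattern TNGNNNAGT in the first 25 bases of 153 (52.8%), 19 of them among the 29. Only exact matches to these patterns were counted, so a gene without a match was not shown to lack the box. A run of 4 T within 40 bp after the gene was present at 287 genes, 28 of them among the 29.

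Other genes of small RNAs were scored the same way. Of 10 other genes read by RNA polymerase III, 2 had a pooled summit, against a shifted mean of 1.92 genes with a range of 0 to 7. Both are genes for 7SK RNA, which holds back the elongation factor P-TEFb. snRNA:7SKa had a pooled score of 49.8, with 33.2 in replicate 1 and 17.9 in replicate 2, and snRNA:7SKb scored 39.97, 28.8 and 14.6. At snRNA:7SKb the pooled and replicate 1 summits lay 480 and 491 bp past the 5′ end. Its replicate 2 summit lay 485 bp upstream, so the replicates listed different places there. The genes for 7SL RNA, the RNA of the signal recognition particle, had none. The 100 genes of 5S rRNA, in a tandem array, had no summit in any list. Their shifted windows had 14.97% (pooled), 23.3% (replicate 1) and 20.1% (replicate 2) on average, with a lowest value of 0.0% in every list, since the array moves as 1 place. A count of 0 was thus inside the range of the shifts. Their copies are near identical, so that placement of reads again bears on this count and was not tested. Of 269 snoRNA genes, which guide the modification of rRNA and mostly lie in introns of genes read by RNA polymerase II, 24 (8.92%) had a pooled summit, 24 a replicate 1 summit and 84 (31.2%) a replicate 2 summit, against shifted means of 15.4, 23.2 and 22.1%. The snoRNA genes thus showed the same low replicate 1 and higher replicate 2 share as the tRNA genes did.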

How the data were processed

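The deposited values are lists of regions in dm6, 1 for each of the 2 replicates, 1 for both pooled, and 1 of regions that passed a reproducibility (IDR) threshold. Per the deposited description files, the authors made each list from alignments and a control file. Aligner, peak caller, threshold and treatment of reads with several matches are stated in none of the labels or headers. Each region carries the authors' score, as deposited, on a scale that is not stated, and the distance of its summit from the region's start, as deposited. Lists on the older build were not used, and depth is unknown, since no read counts are in the lists.

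tRNA genes came from the Ensembl release 115 annotation and sequences from the RefSeq assembly, release 6. A gene was called when a summit lay within 500 bp. The comparison windows were 99 even circular shifts along each arm, windows 2 to 20 kb away, and 73 bp at protein-coding 5′ ends extended likewise. Signed distances count from the gene's 5′ end. The scripts (Python 3.11.15, pandas 2.3.3, numpy 2.4.6, scipy 1.17.1) were tested on simulated data. Shares have 95% Wilson intervals, and beside a share of 0 stands the share that 3 counts would make. Members and lists were chosen with earlier results of these data known. Named are each gene with a thresholded summit, the next 10 by pooled score, loci of 5 or more genes, selenocysteine and initiator methionine genes, and each isotype's highest gene. Others, such as the tRNA:Leu-CAG and tRNA:Asp-GTC families and tRNA:Met-CAT-1-3, were named after their values were seen. Alternatives covered the window, overlap, start sites, copies, list length, locus gap and each replicate alone.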

Additional observations from a re-analysis of the deposited data

Results flagged for a closer look

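Regions were also listed outside the chromosome arms. Of the 22 mitochondrial tRNA genes, 6 (27.3%) had a replicate 2 summit within 500 bp, from 5 regions with scores of 22.9 to 354. No share over the whole mitochondrial genome was computed, so this count is not a result about its tRNA genes. The thresholded, pooled and replicate 1 lists held no mitochondrial region, which allows a share of up to 13.6%. Mitochondrial DNA is present in many copies per cell and lies outside the nucleus. The part of copy number in these regions was not tested.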

How the results depend on the processing

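A share was taken as moved when it left the 95% Wilson interval of the reported one, and a median when it moved by over 1 SD of the medians of the replicates (3.89 for the score, 85.6 bp for the distance). Of 62 alternatives, 27 stayed within and 35 moved, many because a wider window or longer list finds more by construction. In the order of 250 bp, 1000 bp, overlap with the gene, genes of single sequence and only regions over the list's median score, the share of genes was 4.14, 26.9, 3.45, 17.3 and 6.55% in the pooled list, 4.14, 25.2, 3.79, 15.4 and 5.17% in replicate 1, 14.1, 48.3, 11.7, 32.7 and 9.66% in replicate 2, and 2.07, 17.2, 2.07, 13.5 and 0.690% in both replicates. With 1000 bp the pooled 26.9% was level with its shifted mean of 26.6%, so the pooled deficit held only close to the genes. Replicate 1 was under the shifted mean in all 9 settings run. Replicate 2 was above it in 6 and under it in the 3 that kept only higher-scoring regions. The thresholded share of genes was 0.0% with 250 bp, with overlap and away from start sites, and that of loci 0.0% with 250 bp. Added after seeing the data, the 5000 highest regions gave 1.38% in replicate 1 and 2.76% in replicate 2, and the length of the pooled list gave 14.1% in replicate 2. Pooled loci had 6.90% with 250 bp, 32.2% with 1000 bp and 9.77% with only regions over the median score. The median distance was 48.5 bp with 1000 bp, against the reported 164 bp.

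Leaving out each replicate in turn gave 8.28 to 14.1% for the pooled share of genes, 12.6 to 20.1% for loci, 0.345% for the thresholded genes and 0.575% for thresholded loci either way. The median score was 15.2 to 20.7 and the median distance 6.0 bp without replicate 2 to 127 bp without replicate 1, against the reported 37.0 and 164 bp. These medians come from lists with other score scales. No paired analysis was possible because the series has 1 group. Without read counts, what depth limits cannot be given, and the cause of the moves was otherwise not tested.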

Other observations

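tRNA genes lay about as far from the nearest pooled summit as shifted windows did. The median distance was 2344 bp for tRNA genes, against 2535 bp for shifted windows, and 133 of the 290 genes lay within 2000 bp. In replicate 1 the median was 1821 bp, against 1471 bp, and in replicate 2 it was 1076 bp, against 1731 bp. Introns occur in 16 tRNA genes, 10 for tyrosine, 4 for leucine and 2 for isoleucine. Of these, 4 had a pooled summit, all tyrosine genes, and 6 a replicate 2 summit. Both isoleucine genes with an intron had a replicate 2 summit and none in the other lists, and the 4 leucine genes had none at all.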
